A study of Mus musculus with 6 samples.

Results

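The TRIM genes encode a family of ubiquitin ligases, and their mRNA levels were read in the cervical spinal cord of mice with an imiquimod-induced dermatitis of the neck skin. Members were all protein-coding genes whose symbol is Trim followed by a number and, at most, 1 of the letters a to d. This rule found 68 of the 54532 genes in the files, and it used no measured value. The family itself was chosen with earlier results of these data known, so its counts describe the family. The 6 C57BL/6 mice gave 1 library each. In the imiquimod group, 3 mice received 50 mg of a 5% imiquimod cream on the shaved nape, daily over 2 days, and the 3 vehicle mice received as much cream without the drug. Imiquimod activates Toll-like receptor 7. All animals shared the shaving and the cream, and neither their age nor their sex is given in the sources used here. The whole cervical cord was used, so a lower value can come from fewer cells of a type or from less RNA per cell, and these cannot be told apart. Levels are in FPKM, which divides the fragments of a gene by its exon length and the library's size, and changes are imiquimod minus vehicle on the log2(FPKM + 0.1) scale, with the standard error (SE) from limma.

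TRIM proteins are built from a RING domain, 1 or more B-boxes and a coiled coil, followed by a variable end that selects the target. The RING passes ubiquitin from an E2 enzyme to the target, and a few members, such as Trim14, Trim29 and Trim44, lack it. A branch of the family with a PRY-SPRY end restricts viruses or tunes the signalling of nucleic acid sensors, and many of its genes are induced by interferon. Other members act in axons and synapses, in muscle membrane repair, or as corepressors on chromatin. The 68 members were sorted by these roles into 18 antiviral and innate immune, 4 chromatin, 8 neuronal and cytoskeletal, 4 muscle, 4 transmembrane, ARF or MATH domain, and 30 other genes.

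The recovered depth was 18174411 to 20672881 fragments in the vehicle libraries and 21242415 to 23200996 in the imiquimod libraries. The 5 Hox genes of cervical segments summed to 66.4 to 76.4 FPKM in vehicle and 61.0 to 80.4 FPKM in imiquimod cords, and neuron and oligodendrocyte markers were abundant in all 6, so markers of the labelled tissue were present. A pair of libraries stood apart. Vehicle replicate 2 had the highest level of interferon-induced genes among vehicle cords (Isg15 at 27.2 FPKM against 12.5 and 14.9). In imiquimod replicate 3, Gapdh was listed at 26.4 FPKM, against 1.56 to 2.15 in the other 5. That is 1 gene. A fit that weighs libraries by quality over all genes (voom) gave imiquimod replicate 1 the lowest weight (0.344), then imiquimod replicate 3 (0.522). The main counts of TRIM genes are given with and without these libraries.

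Most of the family was expressed in the cord at low to moderate levels. Of the 68, 10 had a mean of at least 10 FPKM over the 6 libraries, 28 had 1 to 10, 2 had 0.5 to 1 and 24 were above 0 but below 0.5. Trim31, Trim42, Trim50 and Trim52 were listed at 0 in every library. In vehicle cords the order began with Trim37, a ligase of peroxisome import and centriole control, at 60.2 ± 1.05 FPKM (SD, n = 3), and the RING-less Trim44 at 44.2 ± 1.95. Trim32, an NHL-repeat ligase of muscle and neural progenitors, followed at 34.8 ± 1.13 and Trim35 at 33.4 ± 1.19, and these neighbours did not differ beyond their spread. Trim3, a synaptic NHL-repeat ligase, stood at 26.9 ± 1.52. Trim8, a modulator of cytokine signalling, Trim28 and Trim41 lay at 22.3 ± 0.462, 21.2 ± 0.916 and 21 ± 0.75, and Trim2 at 19.9 ± 0.805, each overlapping its neighbour in this order. Trim59 at 11.9 ± 1.25 completed the 10 highest. In imiquimod cords Trim37 at 44.1 ± 4.42 and Trim44 at 42.7 ± 4.87 could no longer be ordered.

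**Figure D1:**
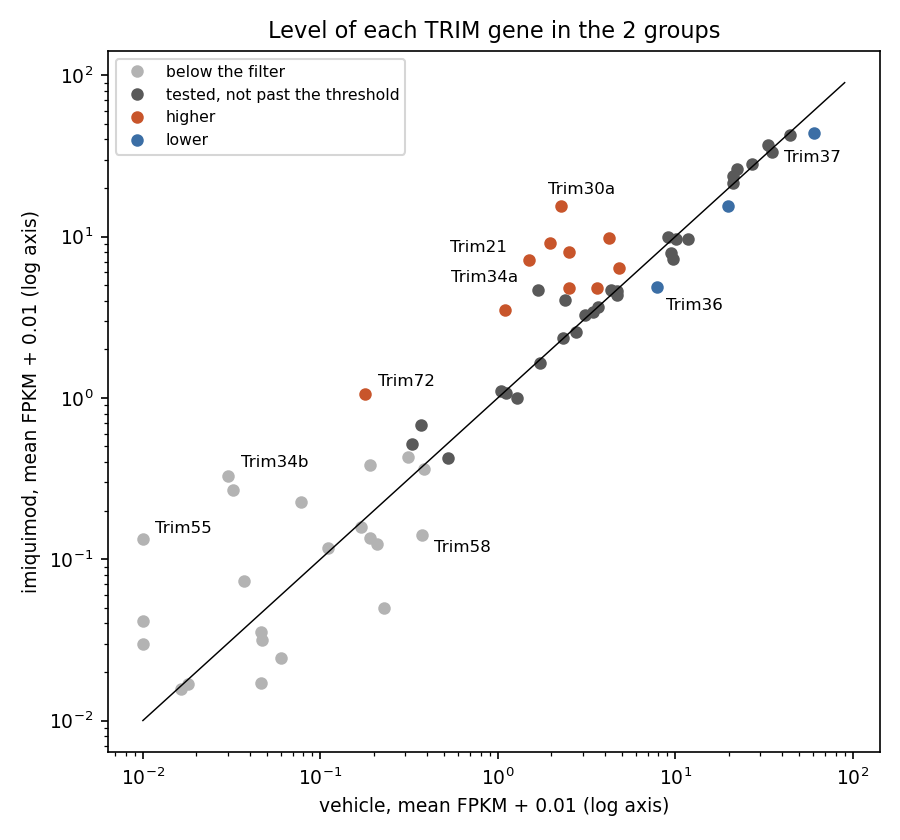
Mean FPKM of the 64 TRIM genes with a value above 0, vehicle on the x axis and imiquimod on the y axis (both log axes, 0.01 added so that zeros can be drawn), with 1 point per gene, coloured by the test, and the line of equal levels. Points past the threshold above the line lie mostly between 1 and 10 FPKM in vehicle, while Trim37, the highest member at 60.2 FPKM, lies under the line.

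The comparison asks which TRIM genes differ in the cord between imiquimod and vehicle mice. The imiquimod mice had both the drug and the dermatitis, so effects of the drug itself and of the inflamed skin cannot be told apart. Of the 13 tested antiviral members 8 rose, as did the muscle gene Trim72, at a low level, and Trim27, while Trim2, Trim36 and Trim37 fell by less than 1 on the log2 scale. Of the 42 members with a mean of at least 0.5 FPKM in either group, 10 were higher (23.8%) at a Benjamini-Hochberg adjusted p under 0.05 in limma, against 8.74% of all 16513 genes tested. Lower were 3 (7.14%, against 5.34% of all genes), a share near the background. Past this threshold and higher by at least 1 on the log2 scale were 7 of 42 (16.7%), against 3.77% of all genes. In 17 members (40.5%) every imiquimod library lay above every vehicle library, against 19.8% of all genes, and in 7 (16.7%) every one lay below, against 18%. The median change of the 42 was 0.06, and that of all genes -0.01. Trim5, Trim14 and Trim72 passed the filter only through their imiquimod values, and Trim7 only through its vehicle values, so the first group was bound to lie higher. Without imiquimod replicate 3, 6 members were higher (14.3%, against 5.06% of all genes), 4 of them by at least 1 (9.52%, against 2.66%). In that fit 1 was lower (2.38%, against 2.58%). Leaving out imiquimod replicate 1 gave 7 higher of 42 (923 of 16582 over all genes) and 2 lower (629 over all genes). Without vehicle replicate 1 or vehicle replicate 2 none was lower (0, limma), and without vehicle replicate 3 there was 1. Lower calls over all genes also dropped without vehicle replicates 1, 2 and 3, from 882 to 187, 252 and 252. Without vehicle replicate 2 the higher members were again 10 (23.8%, against 4.66% of all genes), 8 of them by at least 1 (19%, against 3.07%). With vehicle replicate 2 and imiquimod replicate 3 both left out, 8 were higher (19%, against 2.35% of all genes), 7 of them by at least 1 (16.7%, against 1.96%). None (0) was lower, against 0.437% of all genes, in a fit where 459 genes were called in place of 2326. In that fit Trim2, Trim26, Trim27, Trim36, Trim37 and Trim72 did not pass (adjusted p = 0.272, 0.102, 0.165, 0.195, 0.14 and 0.136), and 21 members (50%) lay wholly above the vehicle libraries, against 27.6% of all genes. Vehicle replicate 2 was singled out by its high interferon-induced genes, so leaving it out was bound to raise the antiviral changes. The fits without vehicle replicate 2 therefore give these changes no separate support.

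**Figure D2:**
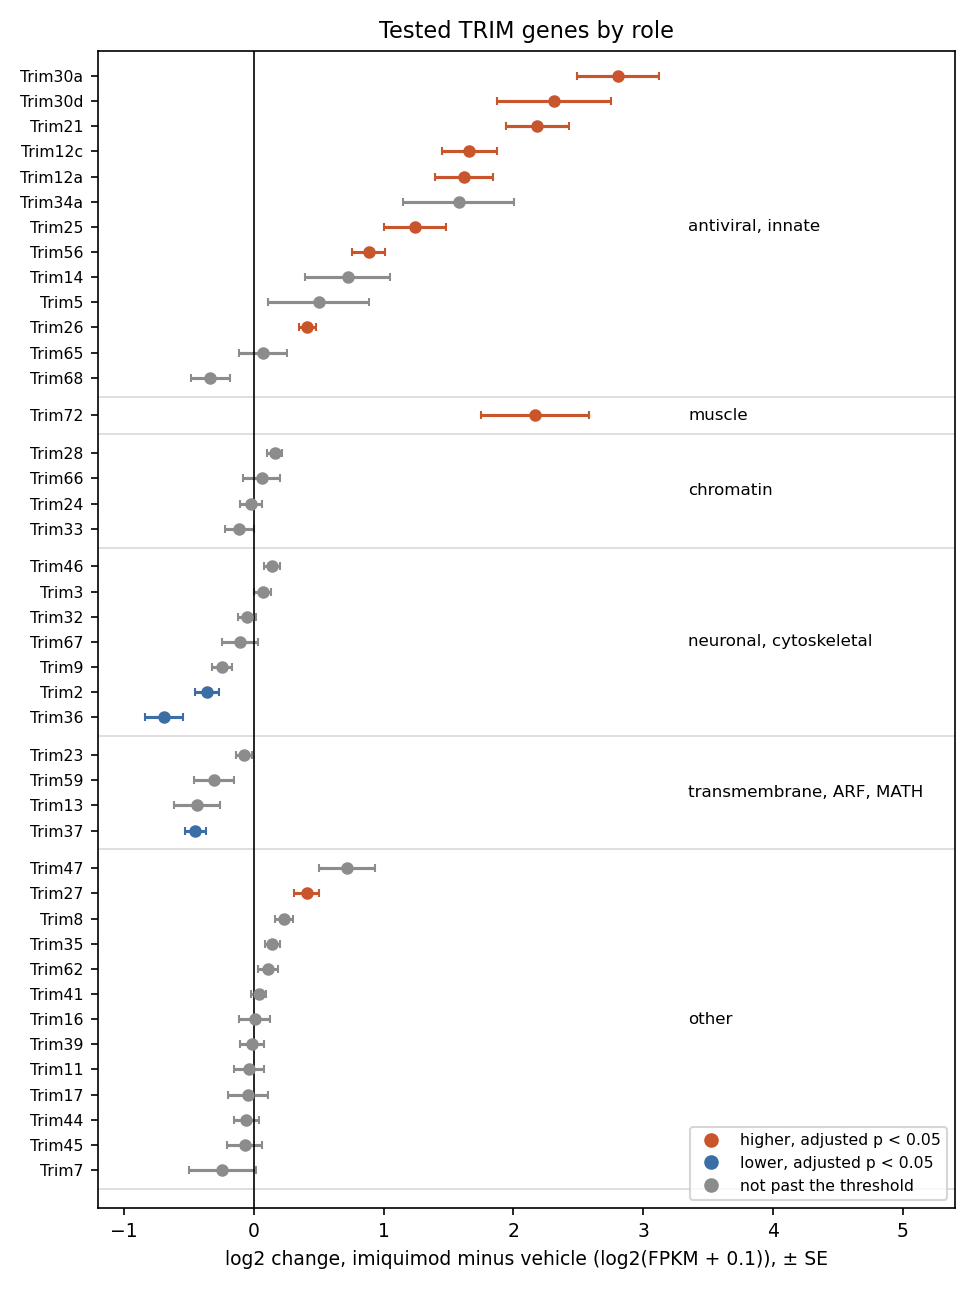
Log2 change of each of the 42 tested TRIM genes (x axis, imiquimod minus vehicle on the log2(FPKM + 0.1) scale; points are estimates and bars the SE, 3 libraries per group), grouped by role. Antiviral genes reach 2.80, while the chromatin genes lie within -0.11 and 0.16.

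The antiviral and innate immune branch held 8 of the 10 higher members: of 18 genes, 13 were tested, 8 rose and none fell (0), with a median change of 1.24 over the 13. Its summed level went from 25.8 ± 6.89 to 73.0 ± 12.2 FPKM (SD, n = 3), or from 6.32% to 16.6% of the family's total. The 18 were put on this list for known antiviral roles with earlier results of these data in view, so the count describes the list. Without vehicle replicate 2, 9 of 13 rose (69.2%, against 4.66% of all genes), and without imiquimod replicate 3, 6 of 12 (50%, against 5.06%). Without both, 8 of 12 rose (66.7%, against 2.35%). Leaving out vehicle replicate 2, chosen for its high interferon-induced genes, favoured these counts. Outside the list 2 of 29 tested members rose (6.9%, against 8.74% of all genes) and 3 fell (10.3%, against 5.34%), and Trim72, among the 2, entered only through its imiquimod values.

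Many of these genes lie side by side, and the sequences at their starts are shown because they share the letters of an interferon-response element. From Trim6 to Trim30d, chromosome 7 from 104218793 to 104507849 (mm10) holds 10 protein-coding genes, all of them TRIM genes. Of the 6 tested, Trim12a, Trim12c, Trim30a and Trim30d rose. A 10-base form of the interferon-stimulated response element (GAAA, any 2 bases, GAAA, on either strand, so TTTC, any 2 bases, TTTC in reverse) was searched from 250 bases before to 50 after each RefSeq start (GRCm38.p6). It was found in 9 of the 53 members with such a window, against 3.99% of 27025 genes. The windows below are in the direction of transcription, with matches in capitals; in Trim21 and Trim26 a pair of matches overlap.
Trim30a (minus strand, chr7:104465180-104465269): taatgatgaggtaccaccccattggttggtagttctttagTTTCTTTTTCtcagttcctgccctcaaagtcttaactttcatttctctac
Trim30d (minus strand, chr7:104507841-104507930): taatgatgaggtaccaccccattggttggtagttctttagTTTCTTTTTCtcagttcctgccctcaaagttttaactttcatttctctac
Trim12c (minus strand, chr7:104353329-104353418): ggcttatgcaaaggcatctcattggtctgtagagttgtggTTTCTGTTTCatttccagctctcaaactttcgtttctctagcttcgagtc
Trim5 (minus strand, chr7:104288106-104288195): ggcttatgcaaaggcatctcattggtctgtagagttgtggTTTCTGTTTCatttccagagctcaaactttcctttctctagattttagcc
Trim12a (minus strand, chr7:104315466-104315525): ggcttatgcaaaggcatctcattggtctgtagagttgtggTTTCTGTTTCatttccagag
Trim34a (plus strand, chr7:104244427-104244486): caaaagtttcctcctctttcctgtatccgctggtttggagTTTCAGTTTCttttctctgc
Trim21 (minus strand, chr7:102565453-102565509): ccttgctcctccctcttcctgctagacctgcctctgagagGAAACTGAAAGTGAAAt
Trim26 (plus strand, chr17:36836946-36837041): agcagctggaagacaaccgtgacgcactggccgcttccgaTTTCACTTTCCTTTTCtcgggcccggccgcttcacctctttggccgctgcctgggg
The Trim30a and Trim30d stretches differ by 1 edit in 90 bases, and those of Trim12c and Trim5 by 7 in 90. The first 60 bases shown for Trim5 are the whole stretch shown for Trim12a. With stretches this alike, the 9 members with a match are not all separate instances. The matches of Trim12a, Trim34a and Trim21 lie after the start. For Trim12a and Trim5, no GENCODE transcript of the gene held the bases just after the RefSeq start. The match of Trim2, at bases 29 to 38 counted from the start, is not shown.

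Matches and changes did not map one to one. Of the 10 higher members 6 held the motif (Trim12a, Trim12c, Trim21, Trim26, Trim30a and Trim30d), and Trim25, Trim27, Trim56 and Trim72 held none in this window. Of the 20 tested members with a window that did not pass, 2 held it, Trim34a and Trim5. The lower gene Trim2 held 1 match as well, and none (0) of the 21 untested members with a window did. A second set of letters was searched in the same windows (TTC, any 3 bases, GAA). It was found in 6 of the 53 members, a share close to the 9.55% of all genes, and in none (0) of the called members.

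Trim30a and Trim30d had the largest fitted increases among the 13 antiviral genes above the filter. Trim30a, a mouse protein that restrains Toll-like receptor signalling, was at 1.55, 3.58 and 1.64 FPKM in vehicle replicates 1 to 3 and at 18.1, 12.3 and 15.9 FPKM in imiquimod replicates 1 to 3. The groups were far apart, with a change of 2.80 ± 0.31 (SE, limma adjusted p = 0.0032). Its neighbour Trim30d was at 0.887, 3.41 and 1.58 FPKM in vehicle and at 11.4, 6.62 and 9.15 FPKM in imiquimod cords. It rose by 2.31 ± 0.44 (limma adjusted p = 0.0184), with vehicle replicate 2 well above the other vehicle cords. The call for Trim30d was lost without vehicle replicate 3 (adjusted p = 0.0677), imiquimod replicate 1 (0.0635) or imiquimod replicate 3 (0.0601). Both genes lie on the minus strand of chromosome 7, Trim30a at 104409025 to 104465193 and Trim30d at 104470014 to 104507849. Of the 50-base words in their transcripts, 5.98% for Trim30a and 7.49% for Trim30d also occur in other genes, so some fragments could be assigned to a copy.

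Trim21, the cytosolic antibody receptor that sends antibody-coated virus to the proteasome, was at 1.26, 1.94 and 1.25 FPKM in vehicle and at 9.26, 5.25 and 6.95 FPKM in imiquimod cords. It rose by 2.19 ± 0.24 (limma adjusted p = 0.0031), with no overlap of the groups. Trim12c and Trim12a are mouse relatives of the retroviral restriction factor TRIM5. Trim12c was at 1.99, 3.18 and 2.30 FPKM in vehicle and at 9.53, 6.18 and 8.50 FPKM in imiquimod cords, an increase of 1.66 ± 0.21 (limma adjusted p = 0.0048). Trim12a was at 0.938, 1.46 and 0.858 FPKM in vehicle and at 3.74, 2.76 and 4.0 FPKM in imiquimod cords, an increase of 1.62 ± 0.22 (limma adjusted p = 0.0065). In both genes the lowest imiquimod cord lay above the highest vehicle cord. Trim12c shares 33% of its 50-base words with other genes and Trim12a 10.4%, so the level of each is uncertain where reads were split between copies; Trim21 shares 0.216%. Trim21 lies apart from the run, on chromosome 7 at 102557921 to 102565486. From Trim21 to Trim30d, both included, there are 113 protein-coding genes, 89 of them olfactory receptors, and of the 101 that are not TRIM genes only the globins Hbb-bs and Hbb-bt were tested and 0 were called.

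**Figure D3:**
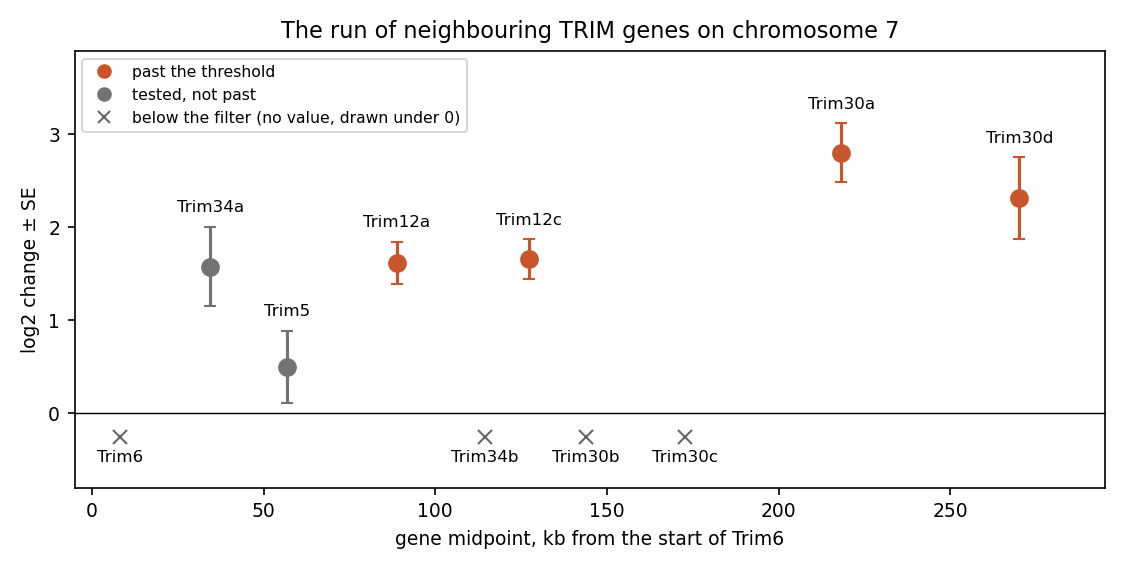
Log2 change (y axis, points with SE bars, 3 libraries per group) of the 10 neighbouring TRIM genes on chromosome 7 against the gene's midpoint in kilobases from the start of Trim6. Trim12a, Trim12c, Trim30a and Trim30d passed the threshold with changes of 1.62 to 2.80, Trim34a and Trim5 did not, and the 4 crosses are genes below the filter.

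Trim25, which partners the antiviral RNA-binding protein ZAP and acts on the RNA sensor RIG-I, was at 2.99, 6.05 and 3.71 FPKM in vehicle and at 10.2, 8.69 and 10.5 FPKM in imiquimod cords. It rose by 1.24 ± 0.24 (limma adjusted p = 0.0188), with the groups apart although vehicle replicate 2 stood high. That call was lost without vehicle replicate 1 (0.0514) or 3 (0.0719) and without imiquimod replicate 1 (0.0617) or 3 (0.0639), each an adjusted p. Trim56, an antiviral ligase that also acts on cytosolic DNA sensing, rose by 0.89 ± 0.13 (limma adjusted p = 0.0072), from 2.39 to 2.73 FPKM in vehicle to 4.09 to 5.56 FPKM in imiquimod cords. Trim26, a regulator of interferon production, rose by 0.41 ± 0.07 (limma adjusted p = 0.0108), from 4.60 to 4.90 FPKM to 6.28 to 6.60 FPKM. Its increase was small, and its groups did not overlap. The Trim26 call was lost without vehicle replicate 1 (adjusted p = 0.057). Trim26 lies in the family's run on chromosome 17, where 6 of 15 protein-coding genes between 36258873 and 36910214 are TRIM genes. Of these only Trim39 was also tested, with a change of -0.01 ± 0.09 (limma adjusted p = 0.952).

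**Figure D4:**
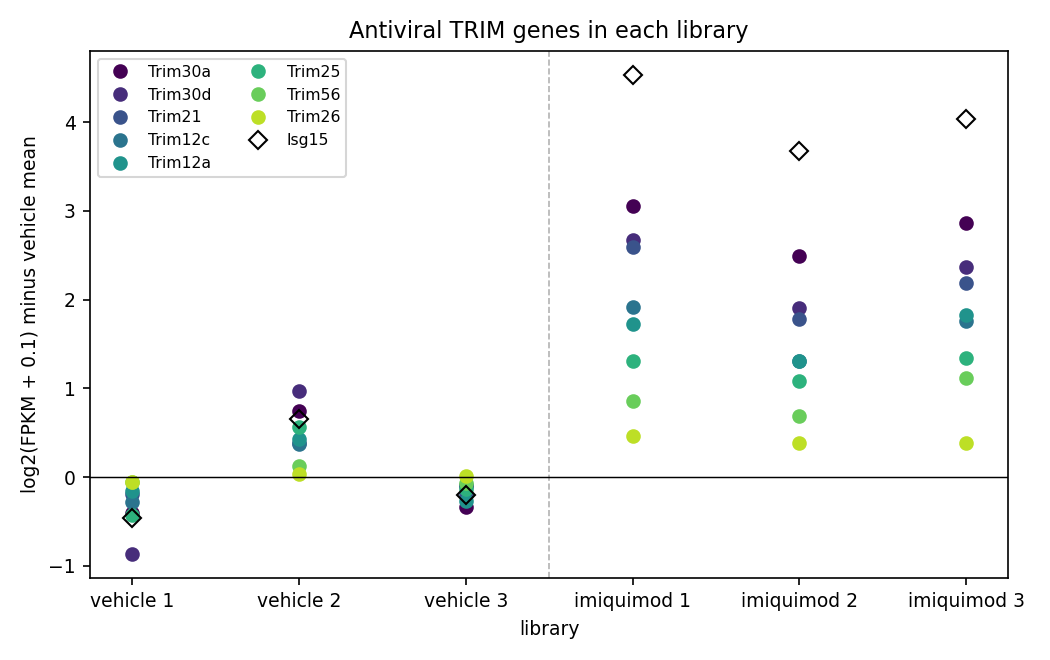
Log2(FPKM + 0.1) of the 8 antiviral TRIM genes that rose, minus each gene's vehicle mean (y axis), in each of the 6 libraries (x axis, 1 point per gene), with Isg15 as an open symbol. In vehicle replicate 2 all 8 lie above the other vehicle cords, and in imiquimod replicate 2 all 8 lie below the other imiquimod cords.

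Of the 13 tested antiviral members, 5 did not pass. Trim34a, a capsid-binding relative of TRIM5, was at 0.828, 2.97 and 1.22 FPKM in vehicle and at 5.48, 3.38 and 5.08 FPKM in imiquimod cords. Every imiquimod cord was above every vehicle cord, and the change was 1.58 ± 0.43 with a 95% interval of 0.57 to 2.59 (limma adjusted p = 0.0529). Without vehicle replicate 2 the adjusted p was 0.0101. Trim14, a RING-less adaptor of mitochondrial antiviral signalling, was at 0.274, 0.358 and 0.448 FPKM in vehicle and at 0.928, 0.464 and 0.629 FPKM in imiquimod cords, and the groups were narrowly apart (0.72 ± 0.33, limma adjusted p = 0.188). Of its exonic bases 38% overlap other genes on the opposite strand. Trim5 was at 0.245, 0.281 and 0.430 FPKM in vehicle and at 0.421, 0.327 and 0.785 FPKM in imiquimod cords, with overlapping groups (0.50 ± 0.39, limma adjusted p = 0.432). These low values are uncertain, since Trim34a and Trim5 share 39.8% and 36.3% of their 50-base words with other genes.

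Trim65, a ligase of the RNA sensor MDA5, was at 0.932, 1.24 and 0.930 FPKM in vehicle and at 0.907, 1.20 and 1.2 FPKM in imiquimod cords (0.07 ± 0.19, limma adjusted p = 0.832). Trim68 was at 1.25, 1.17 and 1.38 FPKM in vehicle and at 1.09, 1.0 and 0.870 FPKM in imiquimod cords, every imiquimod value being the lower (-0.34 ± 0.15, limma adjusted p = 0.191). The other 5 antiviral genes stayed below the filter, and for these the recovered fragments were summed over each group and compared at equal depth. The exact 95% intervals cover counting error only, not the spread between mice. Trim34b had 2 fragments in vehicle and 40 in imiquimod libraries, a ratio of 16.4 (4.27 to 140.5), and shares 56.8% of its 50-base words with other genes. Both vehicle fragments of Trim34b were in replicate 1, and both of Trim30c in replicate 2. Trim30c had 2 and 29 fragments, a ratio of 11.9 (3.02 to 103.1), and Trim30b 28 and 109, a ratio of 3.20 (2.10 to 5.04). Trim6, which builds unanchored ubiquitin chains in interferon signalling, had 43 and 48 fragments, and Trim38 had 4 and 3, with ratios whose intervals span 1. These 3 neighbours of Trim30a and Trim34a had more fragments in imiquimod cords, but in a limma fit without the filter they did not pass (adjusted p = 0.0675 for Trim34b, 0.0644 for Trim30c and 0.187 for Trim30b).

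The 8 antiviral genes that rose shared their highest vehicle and their lowest imiquimod library. All 8 were highest, among vehicle cords, in replicate 2, and all 8 were lowest, among imiquimod cords, in replicate 2. Of all 10 higher members, which include these 8, 9 were highest, among vehicle cords, in replicate 2, and 10 were lowest, among imiquimod cords, in replicate 2. The share over all higher genes was not counted, so whether the pattern is particular to the antiviral genes was not tested. Isg15, at 12.5, 27.2 and 14.9 FPKM in vehicle and at 400.7, 219.9 and 283.1 FPKM in imiquimod cords, had the same highest vehicle and lowest imiquimod library. The summed level of 5 monocyte markers was 1.79 to 9.64 FPKM in vehicle and 21.9 to 78.4 FPKM in imiquimod cords. Replicate 2 again had the highest vehicle and the lowest imiquimod sum (two-sided exact permutation p = 0.1 between groups, the smallest that 3 against 3 can give). Other marker sums that were higher in every imiquimod cord (exact permutation p = 0.1 for each) were those of T and NK cells (3.00 to 4.44 against 21.5 to 48.5 FPKM), microglia (90.8 to 104 against 124.3 to 158.6) and endothelium (59.7 to 60.5 against 119 to 130.2). Single markers did not all follow the sums. Called higher were 3 of 7 microglia, 3 of 4 endothelial and 4 of 5 monocyte markers, against 8.74% of all genes. Of the 6 tested T and NK cell markers 5 were called higher. Gzma and Gzmb, at imiquimod means of 19.3 and 9.26 FPKM, made up much of that sum (mean 37.3). Trbc2 (0.64, limma adjusted p = 0.187) and the monocyte marker Chil3 (2.49, 0.0613) did not pass. Cd3e was below the filter, with overlapping groups. The microglia marker P2ry12 (-0.75, limma adjusted p = 0.0591) and the endothelial Flt1 (-0.49, 0.151) had negative changes that did not pass. The microglia marker Csf1r was flat (-0.01). No gene of these 4 lists was at 0 in all libraries. Their part in the TRIM changes was not tested.

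Several genes that act with the antiviral TRIMs, or that carry the interferon signal, rose as well. Of 14 partner genes of antiviral TRIMs 8 rose (57.1%, against 8.74% of all genes) and 0 fell, with a median change of 1.08. This list too was drawn up with earlier results of these data in view, so the count describes the list. Without vehicle replicate 2 or without imiquimod replicate 3 the count was 8, against 4.66% and 5.06% of all genes. Without both it was 7 (50%, against 2.35%). Vehicle replicate 2 was chosen for its high interferon-induced genes, Isg15 of this list among them, so leaving it out favoured these changes. The fits without vehicle replicate 2 therefore give this list no separate support. The 8 that rose included the RNA sensors Ddx58 (RIG-I, 2.42 ± 0.31, limma adjusted p = 0.0048), Ifih1 (MDA5, 2.19 ± 0.25) and Dhx58 (2.86 ± 0.20). They also included Zc3hav1, which encodes ZAP (1.52 ± 0.24), and Tmem173, which encodes STING (1.35 ± 0.15). The factor Irf7 rose by 4.49 ± 0.56 and the ubiquitin-like modifier Isg15 by 4.08 ± 0.32. The kinase gene Tbk1 rose by 0.38 ± 0.07 (limma adjusted p = 0.0153), which was lost without vehicle replicate 1 (0.0757) or vehicle replicate 3 (0.0662). Tbk1 was also the gene lost with both left out (0.0895). Mavs, Cgas, Ikbkg, Tab2, Irf3 and Vcp did not pass.

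Among genes of the interferon signal, the transcription factor genes Stat2 (1.85 ± 0.24), Irf9 (2.03 ± 0.29) and Irf8 (1.82 ± 0.09) rose. The receptor genes Ifnar1 (0.07), Ifnar2 (0.50) and Ifngr2 (0.07) and the kinase genes Jak1 (-0.15) and Tyk2 (0.16) did not pass (limma adjusted p = 0.618, 0.0843, 0.587, 0.241 and 0.375). Irf1 (1.19 ± 0.31, limma adjusted p = 0.0491) and the interferon gamma receptor chain Ifngr1 (0.43 ± 0.11, limma adjusted p = 0.0468) passed narrowly. Irf1 did not pass without vehicle replicate 1 (0.112), 2 (0.125) or 3 (0.146), or without imiquimod replicate 1 (0.126) or 3 (0.135). Ifngr1 did not pass without vehicle replicate 1 (0.155), 2 (0.129) or 3 (0.0651), or without imiquimod replicate 1 (0.106) or 3 (0.122). Of 13 E2 enzymes that supply RING ligases 12 were tested, and Ube2l6, the E2 of ISG15 conjugation, was the only one to pass (2.53 ± 0.20, limma adjusted p = 0.0011). Of 6 genes listed as TRIM-like, with all or part of the TRIM build but another name, 3 were tested. Pml, the organiser of nuclear bodies, rose by 1.34 ± 0.18 (limma adjusted p = 0.0054), and Rnf135, a RIG-I ligase, by 0.89 ± 0.14 (limma adjusted p = 0.0094, and 0.0677 with vehicle replicate 2 and imiquimod replicate 3 left out). Mid2 had a change of -0.02 and did not pass.

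Trim72, which patches torn muscle membranes, was the only muscle member above the filter. It was at 0.228, 0.232 and 0.0458 FPKM in vehicle and at 0.912, 0.861 and 1.37 FPKM in imiquimod cords, with groups apart and a change of 2.17 ± 0.42 (limma adjusted p = 0.0191). The call was lost without imiquimod replicate 1 (0.0564) or imiquimod replicate 3 (0.0744), each an adjusted p. It was also lost with the replicate number as a block (0.0606) and with vehicle replicate 2 and imiquimod replicate 3 both left out (0.136). At this low level the size depended on the pseudocount, with a change of 0.81 at a pseudocount of 1 and 2.81 at 0.01. Of the exonic bases of Trim72, 27.6% overlap the antisense gene Gm15533, and without a stated strand the reads of both cannot be told apart; Gm15533 had 6 fragments in vehicle and 13 in imiquimod libraries. Trim55, a sarcomere-bound muscle ligase, had 0 fragments in the vehicle and 22 in the imiquimod libraries, at least 6.03-fold higher against a floor of 3 fragments over the group. The exact 95% lower limit of the ratio, for counting error, was lower at 4.50, and it passed in the limma fit without the filter (adjusted p = 0.0301). Trim63 and Trim54 had at most 6 fragments in a group. The 7 skeletal muscle markers summed to 0.642 to 1.38 FPKM in vehicle and 0.845 to 1.02 FPKM in imiquimod cords (exact permutation p = 0.6), and these ranges overlapped.

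The 3 members that fell were Trim37, Trim2 and Trim36. Trim37 was at 61.3, 59.9 and 59.3 FPKM in vehicle and at 41.3, 49.2 and 41.9 FPKM in imiquimod cords, a change of -0.45 ± 0.08 (limma adjusted p = 0.0147). Vehicle cords lay close to each other, and every imiquimod cord was below them. Trim2, an NHL-repeat ligase that protects axons and ubiquitinates neurofilament light chain, was at 20.3, 20.4 and 19.0 FPKM in vehicle and at 14.8, 17.6 and 14.2 FPKM in imiquimod cords (-0.36 ± 0.09, limma adjusted p = 0.0429). Trim36, a microtubule-associated ligase, was at 9.0, 8.17 and 6.54 FPKM in vehicle and at 4.58, 5.62 and 4.31 FPKM in imiquimod cords (-0.69 ± 0.15, limma adjusted p = 0.0253). In all 3 genes imiquimod replicate 2 was the highest of the imiquimod cords, and the groups did not overlap.

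Each of these 3 calls was lost in several of the fits that left out 1 library. Trim37 did not pass without vehicle replicate 1 (adjusted p = 0.0709), vehicle replicate 2 (0.0591) or vehicle replicate 3 (0.0557). Trim2 did not pass without vehicle replicate 1 (0.147), 2 (0.136) or 3 (0.0961), or imiquimod replicate 1 (0.0977) or 3 (0.109). Its change was -0.13 (adjusted p = 0.394) once a trend with exon length and GC content was removed, and 0.065 was its adjusted p after rescaling to TPM. Trim36 did not pass without vehicle replicate 1 (0.0918) or 2 (0.0869), nor without imiquimod replicate 1 (0.0722) or 3 (0.0757). Marker sums of other cell types lay apart in the same direction. The 5 neuron markers summed to 642.6 to 665.6 FPKM in vehicle and 511.5 to 589.6 FPKM in imiquimod cords. The motor neuron markers summed to 57.9 to 62.3 against 25.3 to 45.6 FPKM, and the oligodendrocyte markers to 6639 to 7177 against 4160 to 5501 FPKM (exact permutation p = 0.1 for each). Called lower were 2 of 5 neuron, 2 of 4 tested motor neuron and 0 of 5 oligodendrocyte markers, against 5.34% of all genes. The motor neuron marker Isl1 was below the filter, with overlapping groups (means of 0.442 FPKM in vehicle and 0.412 in imiquimod cords). The neuron marker Syt1 had a positive change (0.20, limma adjusted p = 0.158). Imiquimod replicate 2 had the highest imiquimod sum for all 3 lists, and their part in the lower TRIM levels was not tested.

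The other neuronal and cytoskeletal members gave no call. Of the 7 tested 0 rose and 2 fell, against 8.74% and 5.34% of all genes, with a median of -0.11. The 2 were Trim2 and Trim36, whose calls were lost in several fits as given above. Trim9, which binds the netrin receptor Dcc in growing axons, had a change of -0.24 ± 0.08 (limma adjusted p = 0.0805). Its groups did not overlap, at 8.87 to 9.85 FPKM in vehicle and 7.38 to 8.42 FPKM in imiquimod cords. Trim46, which bundles microtubules at the axon start, had 0.14 ± 0.06 (limma adjusted p = 0.163), and Trim67, the paralog of Trim9, had -0.11 ± 0.14. The synaptic Trim3 (0.07 ± 0.06) and Trim32 (-0.05 ± 0.07) did not pass either. Among 7 partner and target genes of these ligases, Vasp, an actin regulator bound by Trim9, rose by 0.90 ± 0.11 (limma adjusted p = 0.0036). Ank3, the scaffold of the axon initial segment, fell (-0.76 ± 0.18, limma adjusted p = 0.0365), but did not pass without vehicle replicate 1 (0.118), 2 (0.107) or 3 (0.102), or imiquimod replicate 3 (0.0788). Of the transmembrane, ARF and MATH genes, whose median was -0.37, only Trim37 passed. Trim13, a ligase of the endoplasmic reticulum membrane, had -0.44 ± 0.18 (limma adjusted p = 0.149), Trim59 -0.31 ± 0.15 and Trim23 -0.07 ± 0.06.

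The chromatin members Trim24, Trim28, Trim33 and Trim66 gave 0 calls in either direction, and 1 of the 4 had an unadjusted limma p under 0.05. Trim28, the corepressor of KRAB zinc-finger proteins that silences transposable elements, was at 21.8, 20.1 and 21.6 FPKM in vehicle and at 24.0, 23.4 and 23.6 FPKM in imiquimod cords. Its groups were apart by a small margin (0.16 ± 0.06, limma adjusted p = 0.113). Trim24, Trim33 and Trim66 had changes of -0.02 ± 0.08, -0.11 ± 0.11 and 0.06 ± 0.14, with overlapping groups. Of 9 partners of these proteins only Chd3, a remodeller of the NuRD complex, passed, and it fell (-0.62 ± 0.08, limma adjusted p = 0.0055).

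Among the 30 remaining members 13 were tested and Trim27, the RET finger protein, was the only one to pass. Trim27 was at 3.54, 3.56 and 3.66 FPKM in vehicle and at 5.44, 4.50 and 4.50 FPKM in imiquimod cords, groups that were apart, with a change of 0.41 ± 0.10 (limma adjusted p = 0.0348). It did not pass without vehicle replicate 1 (adjusted p = 0.122), 2 (0.109) or 3 (0.098), or imiquimod replicate 3 (0.0588). Trim47 had a larger change with a wider error (0.72 ± 0.22, limma adjusted p = 0.0721), and Trim8 a smaller one (0.24 ± 0.07, limma adjusted p = 0.0656). Trim8 passed without imiquimod replicate 2 (0.026). The abundant Trim35 (0.14 ± 0.06), Trim41 (0.04 ± 0.06) and Trim44 (-0.06 ± 0.09) did not pass. Below the filter, Trim58 and Trim10, known from red cell precursors, had 43 and 26 fragments in vehicle and 19 and 6 in imiquimod libraries. Trim58 had 12 to 18 fragments per vehicle and 6 to 7 per imiquimod library, a ratio of 0.363 (0.200 to 0.637), but it did not pass in the limma fit without the filter (adjusted p = 0.107). Trim10 had 17, 8 and 1 fragments in vehicle and 2, 1 and 3 in imiquimod libraries, overlapping groups in which vehicle replicate 1 held most fragments (adjusted p = 0.402 in that fit). The 5 red blood cell markers summed to 124.6 to 490.1 FPKM in vehicle and 44.6 to 154.8 FPKM in imiquimod cords (exact permutation p = 0.2).

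**Figure D5:**
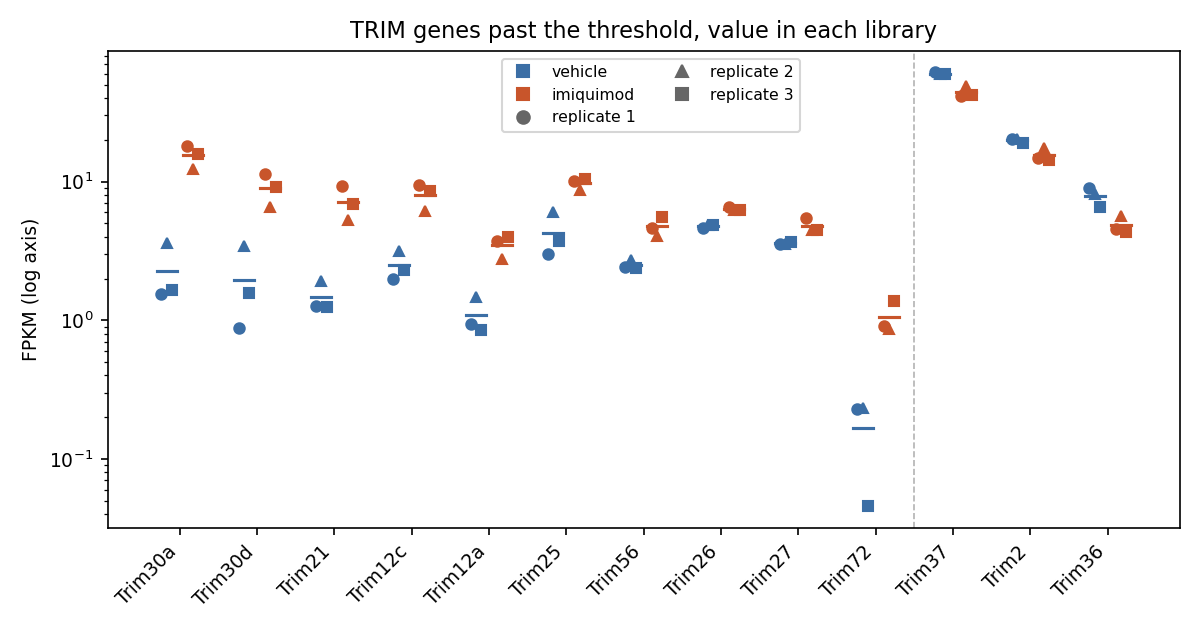
FPKM (y axis, log axis) of the 13 TRIM genes past the threshold in each library (3 vehicle, 3 imiquimod; the symbol shape gives the replicate and the short line the group mean). The 10 genes left of the dashed line rose, with every imiquimod value above every vehicle value, and Trim37, Trim2 and Trim36 on its right fell.

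The family's summed level changed little while its makeup shifted. Vehicle cords summed to 408.1 ± 8.48 FPKM and imiquimod cords to 438.6 ± 0.317 FPKM (SD, n = 3). The transmembrane, ARF and MATH genes went from 22.5% to 16.1% of it and the neuronal and cytoskeletal genes from 27.2% to 23.4%, while chromatin genes kept 7.93% and 7.90%.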

How the data were processed

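The authors deposited 1 FPKM value per gene and library for 54532 Ensembl genes. The submitters' processing notes name HISAT2 2.0.5, featureCounts 1.5.0-p3, DESeq2 1.16.1 and the mm10 build, without roles. Not given in the sources used here are the annotation release, the strand setting and how multiply matching reads were counted. A names table gave symbols for 54409 genes, and GENCODE M21 gave coordinates and exon lengths for 54495.

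Within a library, FPKM times exon length came in whole steps (97.4% to 97.6% of values under 1000 fragments, within 0.05), which gave the fragments. Each library is 1 mouse. The members and lists were chosen with earlier results of these data known. The main test was limma 3.58.1 (R 4.3.3, mean-variance trend) on log2(FPKM + 0.1) for genes with a mean of at least 0.5 FPKM in either group, adjusted by Benjamini-Hochberg over 16513 genes with a threshold of 0.05. For marker sums the test was an exact permutation test, two-sided. Named were all called members, all antiviral members above 0, the 10 highest members and all called partner genes; other members were named after their values were seen. Alternatives were pseudocounts, filters, TPM, voom, a length and GC correction, the replicate block and leaving out libraries. Shared 50-base words were counted over GENCODE transcripts, and promoter windows are RefSeq's. Other steps used SciPy 1.17.1, NumPy 2.4.6, pandas 2.3.3 and matplotlib 3.10.9 in Python 3.11.15. One gene of the interferon signal list is not reported here.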

Additional observations from a re-analysis of the deposited data

How the results depend on the processing

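Of the 10 higher TRIM genes, Trim12a, Trim12c, Trim21, Trim30a and Trim56 (5) passed in all 17 alternatives run, and of the 3 lower genes 0 did. Leaving out 1 library at a time gave 6 to 12 higher and 0 to 3 lower TRIM genes, and 847 to 2986 called genes in all against 2326. With vehicle replicate 2 and imiquimod replicate 3 both left out, an alternative chosen after seeing the data, 0 TRIM genes were lower and 459 genes were called. Directions turned for genes near 0 that did not pass: Trim3 (-0.00103) and Trim41 (-0.0665) with the length and GC trend removed, and Trim44 with voom's sample quality weights (0.00174) and, over single libraries left out, from -0.124 to 0.0381. Over the 26 named members tested and all alternatives, 387 values kept direction and side of the threshold, 39 lost the call, 7 gained it and 4 turned.

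The replicate numbers are shared between groups, and whether they pair the mice is not known. Deviations of same-numbered libraries correlated at 0.0186, -0.097 and -0.0331, and not every library correlated best with its own number. All correlations between the groups were near 0, from -0.102 to 0.134, so this check cannot decide on pairing. With the replicate block, 1330 genes were called, with 8 TRIM genes higher and 2 lower. Trim34a passed with a pseudocount of 1 (adjusted p = 0.046), a minimum of 1 FPKM (0.0462) and voom (0.024). With 3 mice per group and under 20 fragments in a group for several untested members, small changes of low genes were not detectable at this depth.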
